A study of Homo sapiens with 18 samples.

Results

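The proteasome genes described here are 38 genes that encode subunits, activators and an assembly chaperone of the proteasome. They are the rows of the expression table whose Ensembl identifier carries a listed symbol, and they make up 38 of 60658 gene IDs. The list holds 14 genes of the constitutive 20S core (7 of the alpha ring and 7 of the beta ring), 5 genes of the immunoproteasome, 17 genes of the 19S regulatory particle (9 of the base and 8 of the lid), the activator gene PSME3 and the chaperone gene POMP. All 38 had at least 1 FPKM (fragments per kilobase of transcript, scaled to library size) in at least 3 of the 18 libraries, the filter on low values, so all of them were tested.

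Messenger RNA levels were measured by RNA-seq of total RNA from 18 culture plates, 3 for each of 6 groups. THP1 is an acute myeloid leukaemia line, labelled as heterozygous for NRAS-G12D, and its 9 plates received 0, 1 or 10 ug/ml doxycycline for 5 days. B11 is 1 subclone of THP1, labelled as heterozygous for NRAS-G12V, and its 9 plates received the same doses for the same time. B11 carries, in untreated plates too, a lentiviral insert with GFP and with NRAS G12V that resists CRISPR and is induced by doxycycline, and a further vector with Cas9, puromycin resistance and a pair of guide RNAs on either side of the start codon of the endogenous NRAS. The promoter of the insert was not given in the sources used here. All plates of a line were split from 1 culture, so p-values measure the spread between plates and not between clones or independent cultures, and a difference between B11 and THP1 cannot be told apart from a property of this 1 clone or of its vectors.

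The proteasome degrades proteins that carry chains of ubiquitin, a small protein attached as a tag. Its barrel-shaped core has outer rings of alpha subunits, which form the gate, and inner rings of beta subunits, some of which cut peptide bonds. The 19S particle docks on the core, binds and trims the ubiquitin chain, and unfolds and feeds in the substrate with a ring of ATPases. In cells of the immune system, and after interferon in other cells, the catalytic beta subunits PSMB5, PSMB6 and PSMB7 can be replaced during assembly by PSMB8, PSMB9 and PSMB10, which changes the peptides made for display on MHC class I, and the PA28 activator of PSME1 and PSME2 can take the place of the 19S particle.

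Libraries held an estimated 11.6M to 16.7M fragments, and libraries of 1 group correlated at a Pearson r of 0.938 to 0.957 across genes. Fragments per member were estimated from the merged length of all annotated exons of the gene. By this estimate POMP had the least depth, with 570 fragments in its shallowest library. The merged length can exceed that of the transcripts present, so the true numbers may be lower and their order may differ. NRAS lay between 19.8 and 22.0 FPKM in untreated B11, 23.3 to 24.4 at 1 ug/ml and 27.7 to 28.2 at 10 ug/ml, against 21.5 to 25.5 in the 9 THP1 libraries, and the gene-level value does not separate the insert from the endogenous locus. Of 12 myeloid markers, 11 were at or above 1 FPKM in all 18 libraries and CD14 in 14, while CD3E, MS4A1, HBB, COL1A2 and DCN, which define lymphoid, erythroid and fibroblast cells, were listed at 0 in all. The other lymphoid, erythroid, epithelial, fibroblast and endothelial markers reached at most 6.62 FPKM in any library, apart from PECAM1, at 121 to 387 FPKM. In the B and C libraries of the 1 ug/ml B11 group, an ID without a gene name held 6.51% and 3.76% of the FPKM sum. Counts of members that rest on these libraries are therefore also given without them. In bulk RNA, fewer cells of a type and less RNA per cell cannot be told apart.

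In the GENCODE annotation of GRCh38 the 38 genes lie on 14 chromosomes, with 7 each on chromosomes 14 and 17. PSMB8 (chr6:32840717-32844703, minus strand) and PSMB9 (chr6:32844136-32859585, plus strand) lie on opposite strands in the MHC region, and their exons overlap by 139 bases. TAP1 (chr6:32845209-32853978, minus strand), the peptide transporter gene, lies within this annotated body of PSMB9. The RefSeq start of PSMB9, from which its promoter window below is taken, lies past the end of TAP1 with 213 bases between them. PSME1 (chr14:24136158-24138967, plus strand) and PSME2 (chr14:24143362-24147570, minus strand) are separated by 4394 bases. PSMB10 lies apart from both pairs (chr16:67934502-67937087, minus strand). The strand setting was not given in the sources used here. For the 14 members with exonic overlap on the opposite strand the reads of both genes may be mixed. Reads may also be mixed for the 5 members with exonic overlap on their own strand. One of these is PSMB9, which shares 174 bases with PSMB8-AS1. In addition, 11 members have named pseudogenes that can share reads.

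Promoter windows, from 250 bases before to 50 bases after the RefSeq start (GRCh38.p14), were found for 33 of the 38 members. PSMA7, PSMB1, PSMB6, PSMB7 and PSMD4 have no window here. The windows of the 5 immunoproteasome genes, of PSMB5 and of PSMC3 are shown because the values below turn on these genes. Each is printed 5′ to 3′ on the strand of the gene. Capitals mark matches, on either strand, to the interferon-response element (GAAA, any 2 bases, GAAA), to TGACNNNGC (the core of the antioxidant response element, to which NRF1-type factors bind) or to CCAAT. No match overlapped a match of another motif.
PSMB8, chr6:32844630-32844929, minus: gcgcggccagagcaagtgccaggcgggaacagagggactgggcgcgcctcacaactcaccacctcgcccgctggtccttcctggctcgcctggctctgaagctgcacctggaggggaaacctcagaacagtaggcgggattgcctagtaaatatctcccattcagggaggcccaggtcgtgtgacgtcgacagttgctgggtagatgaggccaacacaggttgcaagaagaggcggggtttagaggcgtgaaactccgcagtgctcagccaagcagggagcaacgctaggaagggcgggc
PSMB9, chr6:32853942-32854241, plus: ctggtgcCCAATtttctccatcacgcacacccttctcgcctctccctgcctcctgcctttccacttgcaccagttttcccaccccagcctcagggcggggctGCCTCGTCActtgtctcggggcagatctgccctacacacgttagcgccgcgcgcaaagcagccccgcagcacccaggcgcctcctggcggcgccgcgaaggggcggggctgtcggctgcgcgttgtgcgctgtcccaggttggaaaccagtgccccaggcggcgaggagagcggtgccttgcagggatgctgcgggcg
PSMB10, chr16:67936801-67937100, minus: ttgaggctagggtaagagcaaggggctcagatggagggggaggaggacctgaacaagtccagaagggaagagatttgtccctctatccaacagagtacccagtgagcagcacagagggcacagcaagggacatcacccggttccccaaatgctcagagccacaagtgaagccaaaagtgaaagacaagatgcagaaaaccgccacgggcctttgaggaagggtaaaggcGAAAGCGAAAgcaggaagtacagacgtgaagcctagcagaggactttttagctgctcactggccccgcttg
PSME1, chr14:24135944-24136243, plus: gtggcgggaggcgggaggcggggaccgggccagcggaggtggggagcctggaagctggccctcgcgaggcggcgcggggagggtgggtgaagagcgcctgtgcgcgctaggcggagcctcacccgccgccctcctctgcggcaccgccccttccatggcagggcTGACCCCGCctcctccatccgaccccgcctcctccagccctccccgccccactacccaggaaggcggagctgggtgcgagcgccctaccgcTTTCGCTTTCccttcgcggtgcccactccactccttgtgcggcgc
PSME2, chr14:24146561-24146860, minus: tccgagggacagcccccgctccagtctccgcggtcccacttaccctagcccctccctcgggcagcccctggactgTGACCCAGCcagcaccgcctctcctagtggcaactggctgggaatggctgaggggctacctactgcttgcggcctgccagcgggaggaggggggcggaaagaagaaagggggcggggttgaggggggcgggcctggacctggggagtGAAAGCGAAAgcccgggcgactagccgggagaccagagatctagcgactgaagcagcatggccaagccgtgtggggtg
PSMB5, chr14:23035171-23035470, minus: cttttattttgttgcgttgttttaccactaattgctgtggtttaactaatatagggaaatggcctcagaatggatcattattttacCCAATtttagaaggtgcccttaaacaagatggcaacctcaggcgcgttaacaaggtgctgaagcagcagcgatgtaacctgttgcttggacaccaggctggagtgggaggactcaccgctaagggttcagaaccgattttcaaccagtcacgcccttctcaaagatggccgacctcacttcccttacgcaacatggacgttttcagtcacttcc
PSMC3, chr11:47426390-47426689, minus: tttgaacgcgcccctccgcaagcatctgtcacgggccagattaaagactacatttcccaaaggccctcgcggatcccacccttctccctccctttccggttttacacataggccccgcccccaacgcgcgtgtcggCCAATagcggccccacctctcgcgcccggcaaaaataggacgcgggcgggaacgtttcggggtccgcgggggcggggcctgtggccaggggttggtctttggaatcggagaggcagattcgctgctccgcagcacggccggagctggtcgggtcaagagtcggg

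The interferon-response element was found in 5 of 33 member windows, 15.2%, against 3.57% of the 35116 promoter windows of the same length in the table. Of these 5, 3 were immunoproteasome genes: the match began at position -21 in PSMB10, -28 in PSME2 and 6 in PSME1, counted from the start site with no position 0. The others were PSMA4 (position -240) and PSMB4 (position -68). TGACNNNGC was found in 8 of 33 windows (24.2%, against 13.3% of all), among them PSMB9, PSME1, PSME2, PSMB3 and PSMD12. CCAAT was found in 16 of 33 (48.5%, against 34.6% of all), and TTCNNNGAA, the letters of a gamma-activated site, in 4 of 33 (12.1%, against 7.66%). The PSMB8 window held none of the 4 motifs, which says only that these letters are not in this window. A match is a description and was not tested as a binding site.

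All members were well above the filter: the lowest value of any member in any library was 21.5 FPKM, for PSMD14 in untreated B11. Over the 18 libraries the highest mean was that of PSMB3, a structural beta subunit, at 562 FPKM, and the lowest that of the lid gene PSMD12, at 43.0 FPKM, a 13.1-fold range on this per-length scale. PSMB9 varied the most between libraries, with its highest library at 4.70 times its lowest, followed by PSMD14 at 3.01 and PSMC3 at 2.88 times. PSMB4, PSMB10 and PSMA1 varied the least, at 1.33, 1.34 and 1.35 times.

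**Figure D1:**
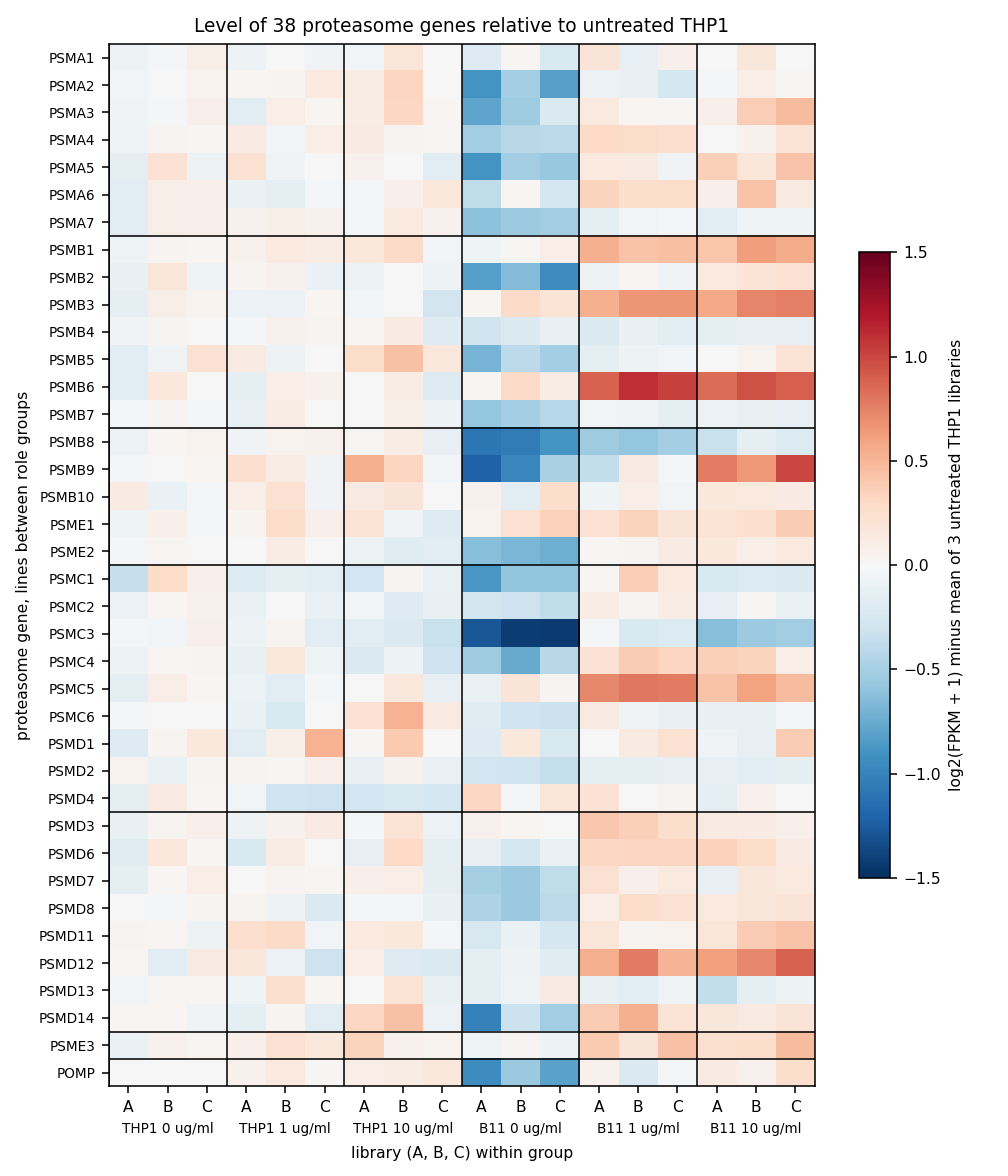
Level of each of the 38 genes (rows, in order of role) in each of the 18 libraries (columns, 3 per group), as log2(FPKM + 1) minus the mean of the 3 untreated THP1 libraries, on a colour scale from -1.5 (blue) to 1.5 (red). The 3 untreated B11 columns are blue for most rows, with PSMC3, PSMB8 and PSMB9 the darkest, and PSMB6 is the reddest row in the treated B11 columns by group mean.

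In B11, most proteasome genes were higher with doxycycline at both doses and none was called lower with all libraries. At 10 against 0 ug/ml, 29 of 38 members were higher and 0 lower at an adjusted p under 0.05 (limma, Benjamini-Hochberg adjusted over 17555 genes), where 21.6% of all genes tested were higher and 21.3% lower. At 1 against 0 ug/ml, 31 were higher and 0 lower, where 19.8% of all genes were higher and 17.3% lower. The median log2 change of the members was 0.51 at 10 ug/ml and 0.49 at 1 ug/ml, against -0.02 and -0.01 over all genes tested. Proteasome genes are abundant, and among the 3563 genes whose mean was at least that of the lowest member, 38.3% were higher at 10 ug/ml and 36.1% at 1 ug/ml. The median log2 change of these 3563 genes was 0.12 at 10 ug/ml and 0.09 at 1 ug/ml. Both comparisons share the 3 untreated B11 libraries.

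All 3 treated libraries lay above all 3 untreated ones for 31 members at 10 ug/ml and for 31 members at 1 ug/ml, where 25.1% and 24.3% of all genes did so. The members called at both doses number 29, PSMC6 and PSMD3 were called only at 1 ug/ml, and 7 were called at neither dose: PSMA1, PSMB4, PSMB10, PSME1, PSMD1, PSMD4 and PSMD13. Without the B and C libraries of the 1 ug/ml B11 group, 25 members were called higher at 1 ug/ml, and at 10 ug/ml the count was again 29.

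Myeloid markers moved in the same comparisons, most of them the other way. Of the 12, 7 were lower and 2 higher at 10 against 0 ug/ml, and 8 were lower and 3 higher at 1 ug/ml (limma, adjusted p under 0.05). LYZ, which encodes lysozyme, was at 2781 FPKM by group mean in untreated B11 and at 448 and 294 at 1 and 10 ug/ml, and CSF1R, the receptor for macrophage colony-stimulating factor, at 174, 43.5 and 14.1. ITGAM, which encodes the integrin CD11b, was at 3.37, 27.9 and 11.3 FPKM in the same groups. The summed level of the 12 ranged from 10388 to 12501 FPKM in untreated B11, from 4956 to 5393 at 1 ug/ml and from 4412 to 4457 at 10 ug/ml, and from 3257 to 3996 over the THP1 libraries. ELANE and LYZ made up most of this sum, so it does not describe the 12 alike. ELANE was at 6490, 3441 and 2949 FPKM in B11 at 0, 1 and 10 ug/ml, and FCGR1A, which rose, at 21.4, 68.7 and 48.8. The part of the myeloid markers in the change of the proteasome genes was not tested.

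**Figure D2:**
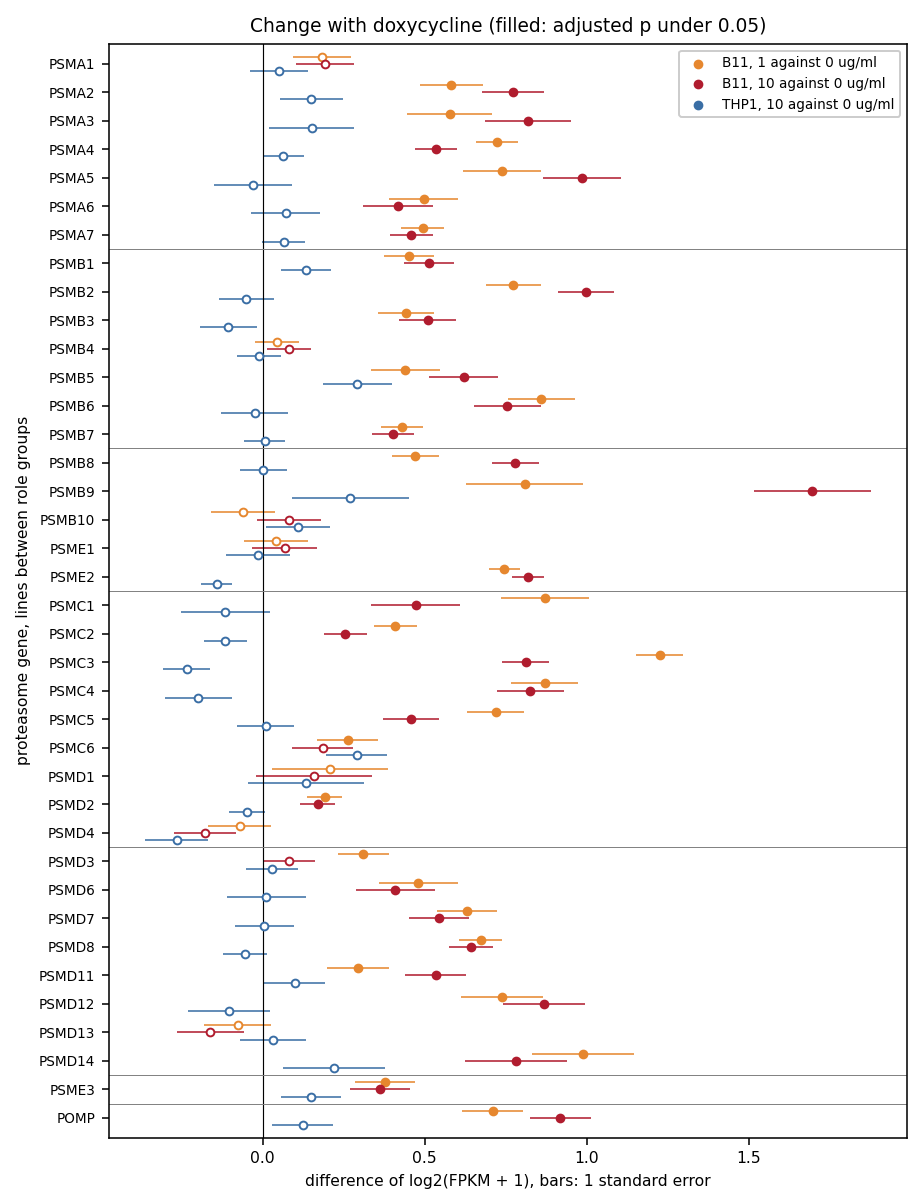
Difference of log2(FPKM + 1), with 1 standard error, for B11 at 1 and at 10 ug/ml and for THP1 at 10 ug/ml, each against the same line at 0 ug/ml, for each member in order of role. Filled points have an adjusted p under 0.05. The B11 points lie to the right of 0 for 35 members at 1 ug/ml and 36 at 10 ug/ml, PSMB9 reaches 1.70, and no THP1 point is filled.

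In the alpha ring, which gates the core, 6 of 7 genes were higher at each dose. PSMA5 (chr1:109399031-109426427, minus strand) was at 134, 175 and 169 FPKM in untreated B11, at 278, 276 and 242 with 1 ug/ml and at 323, 285 and 339 with 10 ug/ml. In THP1, PSMA5 was at 227, 293 and 239.5 untreated, 296, 242 and 251 at 1 ug/ml, and 263, 253 and 225 at 10 ug/ml. The untreated B11 libraries lay below all others. The log2 change in B11 was 0.74 ± 0.12 (SE) at 1 ug/ml (adjusted p = 0.000184) and 0.99 ± 0.12 at 10 ug/ml (adjusted p = 9.5e-06).

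PSMA4 (chr15:78540405-78552419, plus strand), whose window holds an interferon-response match, was at 118, 128 and 128 FPKM in untreated B11, 210.1, 206 and 202 at 1 ug/ml, and 169.7, 178 and 197 at 10 ug/ml. In THP1, PSMA4 was at 162, 175 and 174 untreated, 187, 165 and 183 at 1 ug/ml, and 185, 176 and 173 at 10 ug/ml. Its B11 libraries were highest at 1 ug/ml, and the 3 dose groups of B11 did not overlap. The change was 0.72 ± 0.06 at 1 ug/ml (adjusted p = 4.65e-07) and 0.54 ± 0.06 at 10 ug/ml (adjusted p = 8.05e-06).

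PSMA7 (chr20:62136735-62143440, minus strand) was at 189, 199 and 202 FPKM in untreated B11, 263, 282 and 287 at 1 ug/ml, and 258, 278 and 277 at 10 ug/ml. In THP1, PSMA7 was at 258, 309 and 306 untreated, 304, 308 and 304 at 1 ug/ml, and 287, 320.5 and 304 at 10 ug/ml. Untreated B11 lay below all other libraries, and treated B11 lay at the lower end of the THP1 range or just below it. The change was 0.49 ± 0.07 at 1 ug/ml and 0.46 ± 0.07 at 10 ug/ml (adjusted p = 3.53e-05 and 5.79e-05). PSMA2, PSMA3 and PSMA6 rose by 0.42 to 0.82 at 10 ug/ml and by 0.50 to 0.58 at 1 ug/ml. PSMA1 did not pass the test, with changes of 0.19 ± 0.09 and 0.18 ± 0.09 at 10 and 1 ug/ml.

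In the constitutive beta ring, 6 of 7 genes were higher at each dose, and PSMB4 was not called. PSMB2 (chr1:35599544-35641844, minus strand), a non-catalytic subunit, was at 36.3, 41.1 and 33.3 FPKM in untreated B11, 61.7, 66.2 and 62.8 at 1 ug/ml, and 72.1, 74.9 and 76.4 at 10 ug/ml. In THP1, PSMB2 was at 60.2, 73.7 and 61.9 untreated, 66.7, 67.8 and 60.7 at 1 ug/ml, and 61.5, 65.0 and 61.7 at 10 ug/ml. The 3 B11 groups did not overlap, and 10 ug/ml lay highest. The change was 1.00 ± 0.09 at 10 ug/ml (adjusted p = 2.36e-07) and 0.77 ± 0.09 at 1 ug/ml (adjusted p = 4.57e-06).

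The catalytic subunits PSMB5, PSMB6 and PSMB7 carry the chymotrypsin-like, caspase-like and trypsin-like activity, and all 3 rose. PSMB6 (chr17:4796144-4798503, plus strand) was at 76.2, 90.9 and 80.4 FPKM in untreated B11, 138, 160.1 and 153 at 1 ug/ml, and 134, 146 and 139 at 10 ug/ml. In THP1, PSMB6 was at 66.3, 83.1 and 75.1 untreated, 67.2, 79.8 and 78.1 at 1 ug/ml, and 74.9, 80.9 and 64.9 at 10 ug/ml. Untreated B11 overlapped THP1, and all 6 treated B11 libraries lay above all 12 others. The change was 0.86 ± 0.10 at 1 ug/ml (adjusted p = 1.07e-05) and 0.76 ± 0.10 at 10 ug/ml (adjusted p = 3e-05).

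PSMB5 (chr14:23016543-23035230, minus strand) was at 81.1, 100.1 and 92.4 FPKM in untreated B11, 119, 125 and 128 at 1 ug/ml, and 132, 137 and 152 at 10 ug/ml. In THP1, PSMB5 was at 117, 127 and 155 untreated, 145, 125 and 133 at 1 ug/ml, and 159.6, 179 and 148 at 10 ug/ml. Here untreated B11 lay below THP1 and treated B11 fell within the THP1 range. The change was 0.44 ± 0.11 at 1 ug/ml (adjusted p = 0.00449) and 0.62 ± 0.11 at 10 ug/ml (adjusted p = 0.000253).

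PSMB7 (chr9:124353466-124415444, minus strand) was at 81.9, 85.9 and 91.1 FPKM in untreated B11, 119.7, 118 and 112 at 1 ug/ml, and 116, 114 and 113 at 10 ug/ml. In THP1, PSMB7 was at 121, 127 and 122 untreated, 114, 133 and 123 at 1 ug/ml, and 123, 131 and 117 at 10 ug/ml. Untreated B11 lay below all other libraries, and 3 of the 6 treated B11 libraries lay just below the lowest THP1 library. The change was 0.43 ± 0.06 and 0.40 ± 0.06 at 1 and 10 ug/ml (adjusted p = 7.86e-05 and 0.000122). The structural subunits PSMB1 and PSMB3 rose by 0.51 each at 10 ug/ml and by 0.45 and 0.44 at 1 ug/ml. PSMB4 changed by 0.08 ± 0.07 and 0.04 ± 0.07, with 95% intervals of -0.06 to 0.23 and -0.10 to 0.19.

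The immunoproteasome genes did not act as 1 group in B11. PSMB8, PSMB9 and PSME2 were higher at both doses, and PSMB10 and PSME1 were called at neither. PSMB9 (ENSG00000240065), which replaces PSMB6, was at 44.3, 52.2 and 73.4 FPKM in untreated B11, 80.4, 114 and 102 at 1 ug/ml, and 177, 164 and 208 at 10 ug/ml. In THP1, PSMB9 was at 101, 104 and 106 untreated, 124, 112 and 99.8 at 1 ug/ml, and 150.4, 129.9 and 100.4 at 10 ug/ml. The 3 B11 groups did not overlap, and the 10 ug/ml libraries lay above all others in the study. The log2 change was 1.70 ± 0.18 at 10 ug/ml (adjusted p = 2.28e-06), the largest of any member in that comparison, and 0.81 ± 0.18 at 1 ug/ml (adjusted p = 0.00243). Without the B and C libraries of the 1 ug/ml B11 group, the call at 1 ug/ml was lost (adjusted p = 0.152).

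PSMB8 (ENSG00000204264), which replaces PSMB5, was at 111, 115 and 127 FPKM in untreated B11, 164, 158 and 167 at 1 ug/ml, and 187, 215 and 205 at 10 ug/ml. In THP1, PSMB8 was at 224, 242 and 247 untreated, 228, 247 and 248 at 1 ug/ml, and 241, 256 and 218 at 10 ug/ml. The level stepped up with dose in B11 without overlap, and every B11 library stayed below every THP1 library. The change was 0.47 ± 0.07 at 1 ug/ml (adjusted p = 0.000108) and 0.78 ± 0.07 at 10 ug/ml (adjusted p = 5.5e-07). PSMB8-AS1 has exons that overlap those of PSMB8 on the other strand and those of PSMB9 on the same strand. PSMB8-AS1 was at 48.1 ± 4.3 FPKM (SD, n = 3) in untreated B11 and at 41.9 ± 3.9 and 50.4 ± 2.6 at 1 and 10 ug/ml.

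PSME2 (ENSG00000100911), the beta subunit of PA28, was at 173, 168 and 163 FPKM in untreated B11, 274, 278 and 293 at 1 ug/ml, and 302, 290.0 and 298 at 10 ug/ml. In THP1, PSME2 was at 265, 274 and 272 untreated, 272, 293 and 268 at 1 ug/ml, and 257, 238 and 239.9 at 10 ug/ml. Untreated B11 lay below every other library. The change was 0.75 ± 0.05 at 1 ug/ml (adjusted p = 1.45e-08) and 0.82 ± 0.05 at 10 ug/ml (adjusted p = 4.14e-09), the smallest p of any member in the latter comparison. RNF31, which overlaps PSME2 by 216 exonic bases on the other strand, stood at 86.8 ± 9.0, 81.9 ± 11.8 and 51.5 ± 6.1 FPKM in B11 at 0, 1 and 10 ug/ml, so it did not rise with PSME2.

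PSME1 (ENSG00000092010), the alpha subunit of the same activator, was at 207, 232 and 253 FPKM in untreated B11, 232, 250.1 and 228 at 1 ug/ml, and 229, 237 and 258 at 10 ug/ml. In THP1, PSME1 was at 191, 209 and 196 untreated, 204, 241 and 209 at 1 ug/ml, and 228, 191 and 174 at 10 ug/ml. All 3 B11 groups overlapped. The change was 0.04 ± 0.10 at 1 ug/ml and 0.07 ± 0.10 at 10 ug/ml, with 95% intervals of -0.17 to 0.25 and -0.15 to 0.28. These bounds lie under the change of PSME2, its partner in the PA28 ring.

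PSMB10 (ENSG00000205220), which replaces PSMB7, was at 309, 265 and 356 FPKM in untreated B11, 283, 317 and 287 at 1 ug/ml, and 328, 327 and 322 at 10 ug/ml. In THP1, PSMB10 was at 321, 275 and 292 untreated, 317, 346 and 285 at 1 ug/ml, and 325, 338 and 293 at 10 ug/ml. The B11 libraries at 10 ug/ml lay within the range of the untreated ones and just above those at 1 ug/ml. The change was -0.06 ± 0.10 at 1 ug/ml and 0.08 ± 0.10 at 10 ug/ml, with 95% intervals of -0.27 to 0.15 and -0.13 to 0.29.

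**Figure D3:**
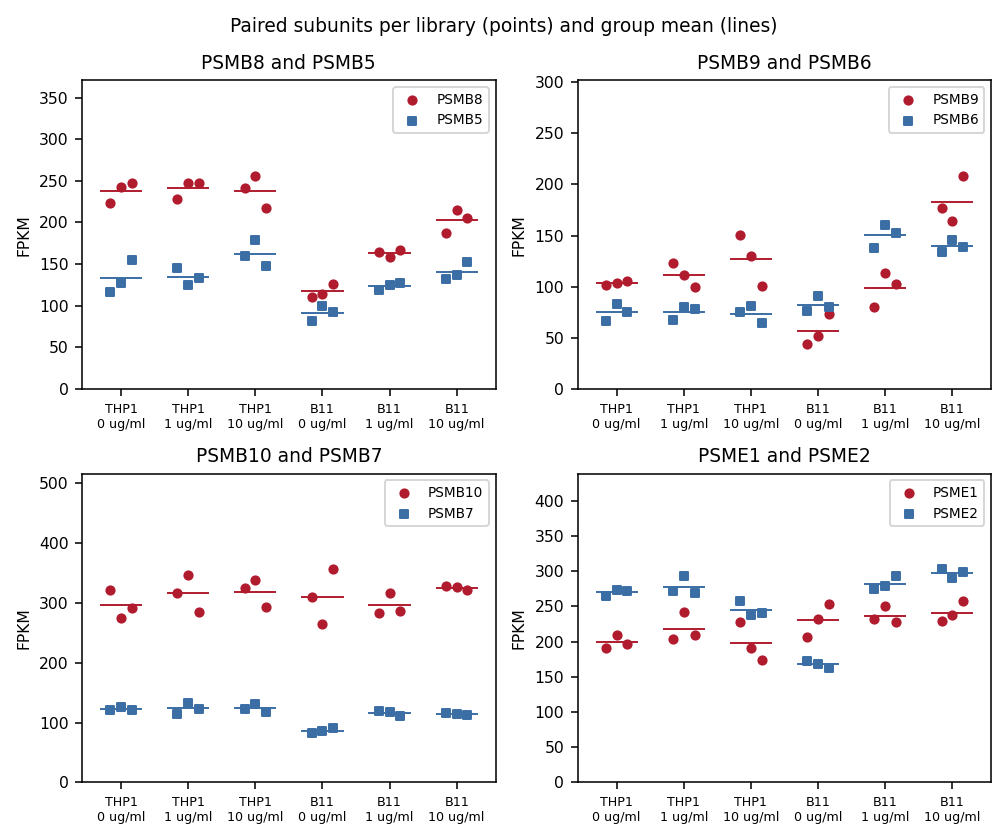
FPKM per library (points) and group mean (lines) for the 3 pairs of an immunoproteasome subunit with the constitutive subunit it replaces, and for the PA28 pair PSME1 and PSME2, in the 6 groups. The vertical axes start at 0. PSMB9 lies under PSMB6 in B11 at 0 and 1 ug/ml and above it in the other 4 groups by the mean, and PSME2 falls below PSME1 only in untreated B11.

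As a description with no test, the ratio of PSMB9 to PSMB6 FPKM was 1.40 ± 0.14 (SD, n = 3), 1.51 ± 0.30 and 1.72 ± 0.25 in THP1 at 0, 1 and 10 ug/ml, and 0.690 ± 0.194, 0.654 ± 0.066 and 1.31 ± 0.19 in B11. In B11 at 1 ug/ml the 2 genes rose together and the ratio stayed near its untreated value. At 10 ug/ml PSMB9 stood higher still, and the ratio of all 3 libraries lay above that of the 6 other B11 libraries and overlapped the THP1 range. The ratio of PSMB8 to PSMB5 was 1.81 ± 0.18, 1.80 ± 0.21 and 1.47 ± 0.04 in THP1 and 1.30 ± 0.13, 1.32 ± 0.06 and 1.44 ± 0.11 in B11. The ratio of PSMB10 to PSMB7 was highest in untreated B11, at 3.59 ± 0.44, against 2.54 ± 0.16 and 2.85 ± 0.02 at 1 and 10 ug/ml and 2.41 to 2.57 in the 3 THP1 groups. The ratio of PSME1 to PSME2 was 1.38 ± 0.18 in untreated B11 and 0.840 ± 0.061 and 0.813 ± 0.055 with doxycycline, against 0.735 to 0.806 in THP1.

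In the base of the 19S particle, 6 of 9 genes were higher at 10 ug/ml and 7 of 9 at 1 ug/ml. The 6 PSMC genes encode the ATPase ring that unfolds substrates. PSMC3 (chr11:47418769-47426473, minus strand) was at 71.5, 64.6 and 63.9 FPKM in untreated B11, 171, 149 and 152 at 1 ug/ml, and 112, 119 and 122 at 10 ug/ml. In THP1, PSMC3 was at 171, 169.8 and 184 untreated, 165, 179 and 157 at 1 ug/ml, and 156, 150.4 and 139 at 10 ug/ml. The 3 B11 groups did not overlap, and the level was highest at 1 ug/ml. The change was 1.23 ± 0.07 at 1 ug/ml (adjusted p = 5.36e-09), the largest of any member at that dose, and 0.81 ± 0.07 at 10 ug/ml (adjusted p = 3.97e-07).

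PSMC4 (chr19:39971005-39981441, plus strand) was at 38.1, 32.4 and 41.4 FPKM in untreated B11, 64.6, 72.3 and 69.3 at 1 ug/ml, and 71.0, 69.8 and 59.4 at 10 ug/ml. In THP1, PSMC4 was at 52.6, 56.6 and 57.0 untreated, 51.3, 61.7 and 52.8 at 1 ug/ml, and 47.7, 52.6 and 44.4 at 10 ug/ml. Untreated B11 was lowest, and the 2 treated B11 groups overlapped each other. The change was 0.87 ± 0.10 at 1 ug/ml (adjusted p = 8.79e-06) and 0.83 ± 0.10 at 10 ug/ml (adjusted p = 1.17e-05).

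Of the other ATPase genes, PSMC1 rose by 0.87 at 1 ug/ml and 0.47 at 10 ug/ml, PSMC5 by 0.72 and 0.46, and PSMC2 by 0.41 and 0.26. PSMC6 rose by 0.26 ± 0.09 at 1 ug/ml (adjusted p = 0.0407), a call lost in 11 of 28 alternative settings, and changed by 0.19 ± 0.09 at 10 ug/ml (adjusted p = 0.131). PSMC1 shares 4671 exonic bases with NRDE2 on the other strand, whose level ranged from 9.89 to 56.9 FPKM over the B11 libraries. PSMD2, a scaffold subunit, rose by 0.19 at 1 ug/ml and 0.17 at 10 ug/ml. The other scaffold subunit, PSMD1, was at 54.1, 62.2 and 60.7 FPKM by group mean in B11 at 0, 1 and 10 ug/ml and was not called. PSMD4, a ubiquitin receptor, was at 351, 333 and 309 FPKM in the same groups, with a change of -0.18 ± 0.10 at 10 ug/ml (adjusted p = 0.157). Without library B of untreated B11, PSMD4 was called lower at 10 ug/ml (-0.27, adjusted p = 0.0453), and the comparison then held 29 members higher and 1 lower.

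In the lid, which removes ubiquitin, 6 of 8 genes were higher at 10 ug/ml and 7 of 8 at 1 ug/ml. PSMD8 (chr19:38374536-38383824, plus strand) was at 122, 115 and 127 FPKM in untreated B11, 181, 204 and 198 at 1 ug/ml, and 187, 190.4 and 194 at 10 ug/ml. In THP1, PSMD8 was at 167, 165 and 174 untreated, 174, 159 and 145 at 1 ug/ml, and 166, 166 and 156 at 10 ug/ml. All treated B11 libraries lay above all THP1 libraries, and all untreated ones below. The change was 0.67 ± 0.07 at 1 ug/ml (adjusted p = 1.53e-06) and 0.64 ± 0.07 at 10 ug/ml (adjusted p = 1.89e-06).

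PSMD12 (chr17:67337916-67366627, minus strand) was at 33.4, 34.8 and 32.1 FPKM in untreated B11, 53.8, 63.4 and 52.6 at 1 ug/ml, and 56.8, 61.0 and 68.4 at 10 ug/ml. In THP1, PSMD12 was at 37.3, 32.7 and 40.4 untreated, 41.4, 34.4 and 29.5 at 1 ug/ml, and 39.3, 31.9 and 31.5 at 10 ug/ml. Untreated B11 overlapped THP1, and treated B11 stood above every other library. The change was 0.74 ± 0.13 at 1 ug/ml (adjusted p = 0.000297) and 0.87 ± 0.13 at 10 ug/ml (adjusted p = 5.58e-05).

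PSMD7 (chr16:74296775-74306288, plus strand), the partner of the deubiquitinase PSMD14, was at 52.4, 50.0 and 57.0 FPKM in untreated B11, 86.9, 78.6 and 82.6 at 1 ug/ml, and 68.3, 84.0 and 82.4 at 10 ug/ml. In THP1, PSMD7 was at 67.7, 76.1 and 79.6 untreated, 73.7, 76.3 and 76.1 at 1 ug/ml, and 78.2, 79.4 and 66.7 at 10 ug/ml. Untreated B11 was below all other libraries, and the change was 0.63 ± 0.09 and 0.55 ± 0.09 at 1 and 10 ug/ml (adjusted p = 6.8e-05 and 0.000207). PSMD14 itself rose from a group mean of 29.2 FPKM to 58.0 at 1 ug/ml and 49.9 at 10 ug/ml, by 0.99 ± 0.16 and 0.78 ± 0.16. PSMD6 and PSMD11 rose at both doses, by 0.48 and 0.29 at 1 ug/ml and by 0.41 and 0.53 at 10 ug/ml. PSMD3 rose by 0.31 ± 0.08 at 1 ug/ml (adjusted p = 0.00633) and changed by 0.08 ± 0.08 at 10 ug/ml. PSMD13 was at 100.2, 94.6 and 89.5 FPKM by group mean in B11 at 0, 1 and 10 ug/ml and was not called.

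POMP (chr13:28659104-28678925, plus strand), the chaperone that guides beta-ring assembly, was at 30.5, 40.3 and 33.9 FPKM in untreated B11, 62.8, 51.2 and 59.0 at 1 ug/ml, and 65.3, 62.5 and 72.0 at 10 ug/ml. In THP1, POMP was at 59.5, 59.7 and 60.2 untreated, 62.4, 66.3 and 60.8 at 1 ug/ml, and 64.1, 64.6 and 67.0 at 10 ug/ml. Untreated B11 was below all other libraries. The change was 0.71 ± 0.09 at 1 ug/ml (adjusted p = 2.76e-05) and 0.92 ± 0.09 at 10 ug/ml (adjusted p = 1.59e-06).

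PSME3 (chr17:42824385-42843758, plus strand), which encodes the nuclear activator PA28 gamma, was at 69.4, 74.8 and 68.8 FPKM in untreated B11, 95.8, 83.5 and 98.8 at 1 ug/ml, and 86.2, 87.5 and 101 at 10 ug/ml. In THP1, PSME3 was at 68.1, 76.1 and 74.4 untreated, 76.6, 85.5 and 81.5 at 1 ug/ml, and 91.8, 76.0 and 75.6 at 10 ug/ml. Untreated B11 lay within the range of untreated THP1. The change in B11 was 0.38 ± 0.09 at 1 ug/ml (adjusted p = 0.0046) and 0.36 ± 0.09 at 10 ug/ml (adjusted p = 0.00512). BECN1, which shares 300 exonic bases with it on the other strand, went from 144 ± 9.2 FPKM in untreated B11 to 130.0 ± 11.4 and 101 ± 9.2 (SD, n = 3) at 1 and 10 ug/ml, and did not rise with PSME3.

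The 2 doses of B11 differed little. At 10 against 1 ug/ml, 2 members were higher, PSMB8 (0.31 ± 0.07, adjusted p = 0.0111) and PSMB9 (0.89 ± 0.18, adjusted p = 0.00456), where 5.69% of all genes were higher. PSMC3 was lower (-0.41 ± 0.07, adjusted p = 0.00175), where 7.12% of all genes were lower. All 5 immunoproteasome genes had a positive change, from 0.03 to 0.89, and all 9 base genes a negative one, from -0.41 to -0.02, but 3 of the former and 8 of the latter did not pass the test. Of all 17555 genes tested, 8383 had a positive change. The signs share the same libraries, and the smallest changes depend on the scaling. With libraries rescaled to the same sum without the unnamed ID, the median of all genes moved by -0.04, more than the lowest of the 5. PSMC1 and PSMC5, at -0.40 and -0.26, had an adjusted p of 0.0699 and 0.0665, and with values rescaled to TPM (so that every library has the same sum), or with only the compared groups fitted, 2 members were higher and 3 lower. Without library B of B11 at 10 ug/ml, or without the B and C libraries of the 1 ug/ml B11 group, PSMB8 lost its call.

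Summed levels per library describe the balance of the parts, with no test. The 38 genes together held 0.549%, 0.549% and 0.557% of the FPKM sum in THP1 at 0, 1 and 10 ug/ml, and 0.416 ± 0.019%, 0.584 ± 0.029% and 0.597 ± 0.021% (SD, n = 3) in B11. The ID without a gene name is part of that sum. Without it the B11 shares were 0.416 ± 0.019%, 0.604 ± 0.010% and 0.597 ± 0.021%, so the order of the 2 doses turned, and in both cases they overlapped. Core and regulatory particle both rose with 1 ug/ml, from 2467 ± 180 to 3374 ± 22 FPKM and from 1457 ± 23 to 1946 ± 26 FPKM. At 10 ug/ml the core stood at 3508 ± 166 FPKM and the regulatory particle at 1779 ± 61 FPKM. Their ratio was therefore 1.73 ± 0.02 at 1 ug/ml and 1.97 ± 0.03 at 10 ug/ml, without overlap. In untreated B11 the ratio was 1.69 ± 0.14. In THP1 it was 1.67 ± 0.03, 1.76 ± 0.04 and 1.80 ± 0.03 at 0, 1 and 10 ug/ml. Both treated THP1 groups lay above untreated THP1 without overlap, so a higher ratio at 10 ug/ml was not particular to B11. In B11 at 1 ug/ml the ratios (1.71 to 1.75) lay within the untreated range (1.54 to 1.82). Abundant genes weigh most in these sums. In THP1 the regulatory sum went from 1748 to 1683 and 1672 FPKM. PSMD4 alone, which was not called, went from 314 to 270 and 260 FPKM there. The immunoproteasome genes made up 27.5%, 28.2% and 27.3% of the sum of core and immunoproteasome genes in THP1, and 26.4 ± 1.9%, 24.2 ± 0.6% and 26.3 ± 0.7% in B11.

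**Figure D4:**
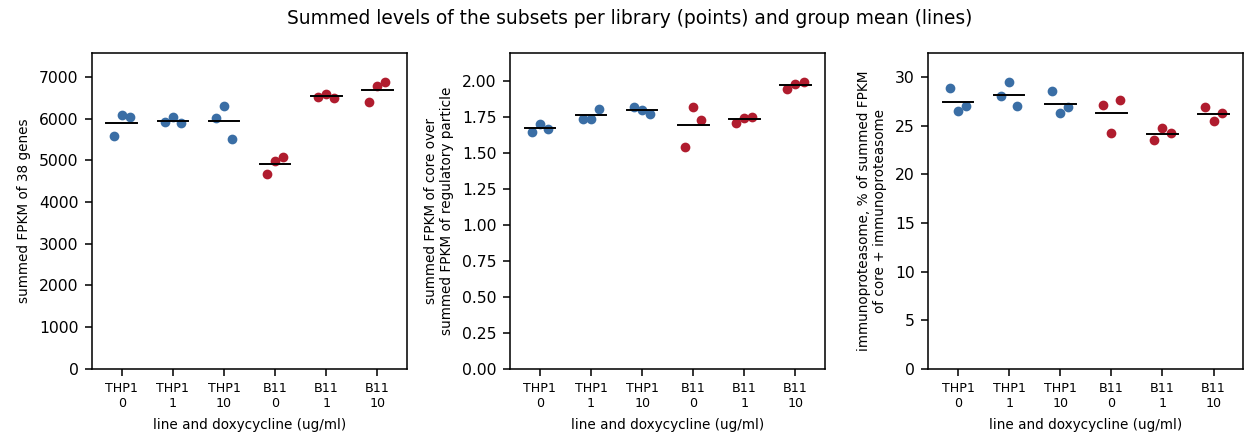
Summed FPKM of all 38 genes, ratio of the summed constitutive core to the summed regulatory particle, and percentage of immunoproteasome genes in the sum of core and immunoproteasome genes, per library (points) with the group mean (lines), THP1 in blue and B11 in red. All axes start at 0. The untreated B11 libraries hold the lowest sums of all 38 genes (4678 to 5080 FPKM), and the B11 libraries at 10 ug/ml the highest ratios of core to regulatory particle (1.94 to 1.99).

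In THP1, which has no inducible insert, no member was called with doxycycline. At 10 against 0 ug/ml the count was 0 of 38 by limma, where 1.02% of all genes were called in either direction. At 1 against 0 ug/ml it was 0 of 38, where 0.0114% of all genes were called. At 10 against 1 ug/ml it was 0 of 38, where 0.296% were called. The count of called members was 0 in each of the 28 alternative settings for all 3 comparisons. At an unadjusted p under 0.05, 5, 1 and 4 members passed in these comparisons, in the same order. Of all 17555 genes tested, 1835, 958 and 1689 passed at that unadjusted threshold. The changes at 10 ug/ml ran from -0.27 for PSMD4 to 0.29 for PSMB5 and for PSMC6, with a median of 0.01. The median standard error of the members was 0.09. For PSMB9, PSMC3 and PSME2, picked for large changes in B11, those changes lay outside the 95% intervals of the same genes in THP1. The upper bounds of these intervals were 0.66, -0.08 and -0.04. PSMC3 and PSME2 thus fell in THP1 by the unadjusted interval, without a call. Their group means went from 175 to 149 and from 270 to 245 FPKM. These falls add to their differences of dose response between the lines, given below.

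Untreated B11 held less proteasome messenger RNA than untreated THP1. Of 38 members 22 were lower and 0 higher, where 23.6% of all genes were lower and 23.5% higher, and the median difference was -0.32, against 0.02 over all genes. Among the 3563 genes at or above the level of the lowest member, 36.1% were lower, and their median difference was -0.06. PSMC3 differed most, at -1.38 ± 0.07 (adjusted p = 9.64e-10), followed by PSMB8 at -1.01 ± 0.07 (adjusted p = 2.79e-08) and PSMB9 at -0.89 ± 0.18 (adjusted p = 0.000831). By role, 5 of 7 alpha, 4 of 7 beta, 3 of 5 immunoproteasome, 6 of 9 base and 3 of 8 lid genes were lower, and POMP was lower too (-0.77 ± 0.09). Among the 16 not called were PSMB1, PSMB3, PSMB6 and PSMC5, with differences from 0.02 to 0.18. Rescaling to TPM moved the median of all genes in this comparison by -0.10 and called 26 members lower. Of the 22 members, 20 were called higher in B11 with 10 ug/ml, but both comparisons use the untreated B11 libraries. Of the 12 myeloid markers, 7 were higher and 3 lower in untreated B11 than in untreated THP1.

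With doxycycline in both lines the difference was mixed. At 1 ug/ml, 13 members were higher in B11 than in THP1 and 3 lower, where 15% and 14.8% of all genes were, and under TPM scaling the split was 11 higher and 5 lower. At 10 ug/ml, 12 were higher and 3 lower, where 16.4% and 16% were, and under TPM scaling the split became 8 higher and 9 lower. Called higher at both doses were PSMB1, PSMB3, PSMB6, PSMC4, PSMC5, PSMD8 and PSMD12. The largest differences at 10 ug/ml were those of PSMB6 (0.92 ± 0.10, adjusted p = 8e-06), PSMD12 (0.84 ± 0.13, adjusted p = 0.00012) and PSMB3 (0.79 ± 0.09, adjusted p = 6.07e-06). PSMB3, at 480.5, 574 and 543 FPKM in untreated B11, reached 681, 743 and 742 at 1 ug/ml and 697, 782 and 793 at 10 ug/ml, above the THP1 range of 388 to 498.

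PSMB8 was lower in B11 than in THP1 at all 3 doses, by a log2 difference of -1.01, -0.56 and -0.23 at 0, 1 and 10 ug/ml. PSMB9 differed by -0.89, -0.18 and 0.54, so its call was lower at 0, absent at 1 and higher at 10 ug/ml (adjusted p = 0.000831, 0.495 and 0.0337). PSME2 differed by -0.68, 0.02 and 0.28 (adjusted p = 2.52e-08, 0.778 and 0.000446). PSMC3 differed by -1.38, -0.09 and -0.33, lower at 0 and at 10 ug/ml. At 1 ug/ml, 10 members were called in place of 16 without library C of THP1, without library A of B11 or without library B of B11 at that dose, and 6 without both the B and the C library of B11. At 10 ug/ml the lowest count with 1 library left out was 10 in place of 15, and the calls of PSMB2, PSME1 and PSMA5 were lost in 12, 10 and 9 of 28 alternative settings.

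**Figure D5:**
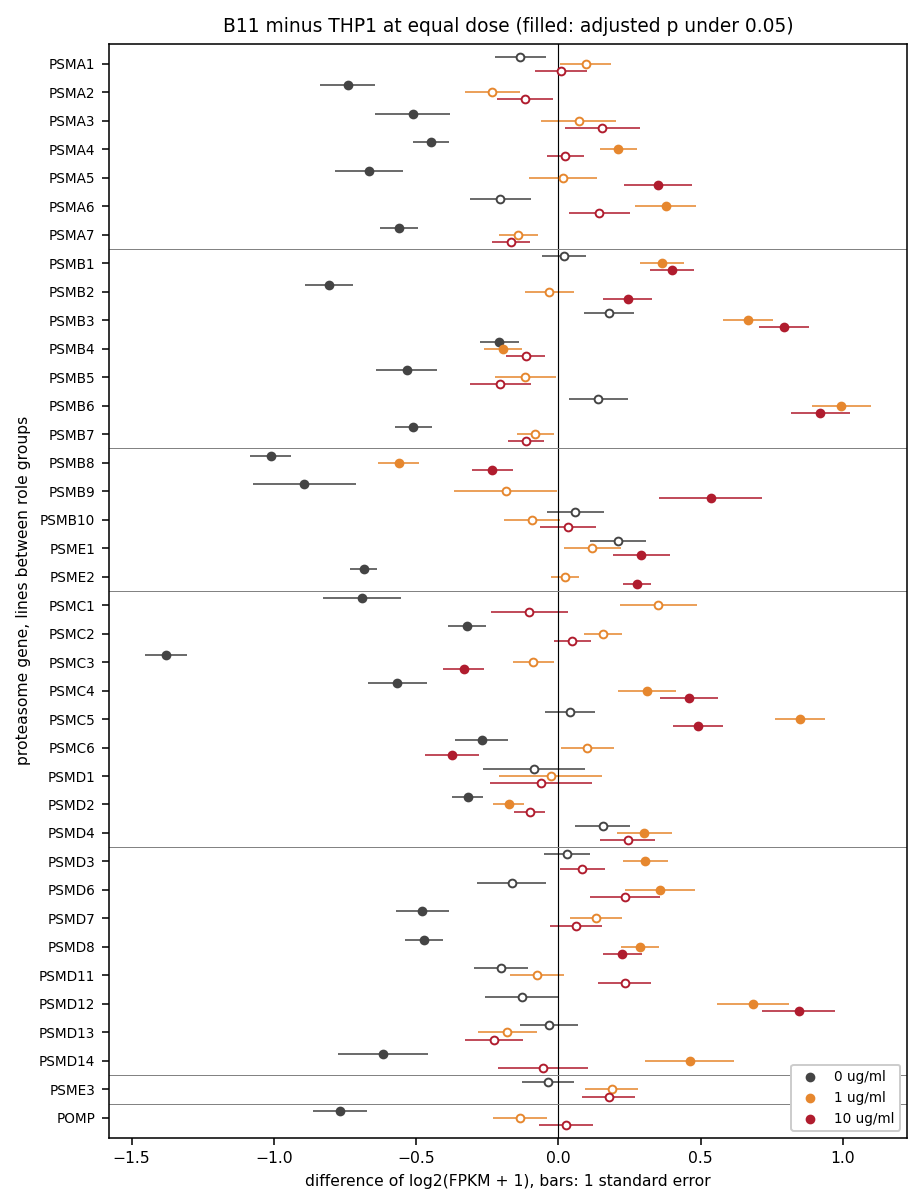
Difference of log2(FPKM + 1), B11 minus THP1, with 1 standard error, at 0, 1 and 10 ug/ml doxycycline for each member in order of role. Filled points have an adjusted p under 0.05. Filled points at 0 ug/ml are all to the left of 0, and PSMB6, PSMB3, PSMC5 and PSMD12 are to the right at both doses.

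The dose response itself was compared between the lines as the change in B11 minus the change in THP1. At 10 against 0 ug/ml this difference was positive and called for 24 of 38 members and negative for 0, where 16% of all genes were called higher and 13.8% lower. At 1 against 0 ug/ml it was again called for 24 and in the positive direction, where 14.3% were called higher and 11.6% lower. Both counts use the same untreated libraries, and shares called among genes at the level of the members are not given here. The members' median difference was 0.44 and 0.50 at 10 and 1 ug/ml, against 0.14 and 0.10 among the 3563 genes at that level. At 10 against 1 ug/ml the difference was called for 1, PSME2 (0.25 ± 0.07, adjusted p = 0.0489), where 2.25% were called higher and 2.39% lower, and that call was lost in 25 of 28 alternative settings. The largest differences at 10 ug/ml were those of PSMB9 (1.43 ± 0.26), PSMB2 (1.05 ± 0.12), PSMC3 (1.05 ± 0.10), PSMC4 (1.02 ± 0.15) and PSMA5 (1.02 ± 0.17). Among the genes that rose in B11 at 10 ug/ml without a called difference from THP1 were PSMB5 (0.33 ± 0.15, adjusted p = 0.122) and PSME3 (0.21 ± 0.13, adjusted p = 0.247).

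Genes that assemble or serve the proteasome, listed apart from the 38, are named below for many of those called, which goes beyond the 3 genes with the smallest p per list, so the further names were chosen after their values were seen. Of 9 further chaperone and regulator genes, 6 were higher and 1 lower in B11 at 10 against 0 ug/ml, and 5 higher and 0 lower at 1 ug/ml. The counts of this and the next lists stand beside 21.6% of all genes tested called higher and 21.3% lower at 10 ug/ml, and 19.8% and 17.3% at 1 ug/ml. Among the 3563 genes at or above the level of the lowest member, 38.3% and 36.1% were called higher at the 2 doses. The core assembly chaperones PSMG1, PSMG2, PSMG3 and PSMG4 rose at both doses, PSMG1 by 1.11 and 1.21 at 10 and 1 ug/ml and PSMG4 by 0.77 and 0.93. The base chaperone PSMD10 rose by 0.62 and 0.58, and ECPAS, a scaffold protein of the proteasome, fell by 0.33 at 10 ug/ml. Of 11 tested genes of further subunits and bound factors, 8 were higher and 0 lower at each dose, among them the deubiquitinases UCHL5 (1.24 at 10 ug/ml) and USP14 (0.78), the ubiquitin shuttles RAD23B (0.57) and UBQLN1 (0.75), the ubiquitin receptor ADRM1 (0.31), the proteasome-bound thioredoxin TXNL1 (0.62) and the inhibitor PSMF1 (0.54). PSMA8 and PSMB11, tissue-restricted subunits of testis and thymus, did not pass the filter. UCHL5, USP14 and RAD23B were also lower in untreated B11 than in untreated THP1, with log2 differences of -1.15, -0.80 and -0.96.

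NFE2L1 encodes NRF1, the factor known to raise proteasome genes when the proteasome is inhibited. Of the 7 genes listed for its pathway, 0 were higher and 2 lower in B11 at 10 against 0 ug/ml, and 3 were higher and 1 lower at 1 ug/ml. NFE2L1 rose by 0.62 at 1 ug/ml and was lower at 10 than at 1 ug/ml, by -0.46, and HERPUD1, a gene of protein degradation at the endoplasmic reticulum, rose by 1.26 and then stood lower by -0.87. NGLY1, whose enzyme removes sugars from NRF1, fell by 0.82 and 0.55 at 1 and 10 ug/ml, and NFE2L2, which encodes NRF2, fell by 0.44 at 10 ug/ml. VCP, which extracts NRF1 from the membrane, rose by 0.27 at 1 ug/ml and had a difference of 0.10 at 10 ug/ml, which was not called. Of 16 MHC class I genes, 6 were higher and 3 lower at 10 ug/ml, and 7 were higher and 5 lower at 1 ug/ml.

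Among these class I genes, the peptide-loading genes PDIA3, CALR, CANX and TAP2 rose by 1.05, 1.13, 0.65 and 0.65 at 10 ug/ml, and TAP1, which lies within the annotated body of PSMB9, by 0.27. B2M, HLA-C and HLA-B fell by 0.86, 0.41 and 0.17 at 10 ug/ml, and B2M, HLA-B, HLA-C and HLA-E by 1.07, 0.60, 0.77 and 0.24 at 1 ug/ml. The HLA genes, and the ubiquitin genes below, share near-identical stretches, so their values are uncertain. In untreated B11 these 4 genes had been higher than in untreated THP1, by 0.56 for B2M and 1.25 to 1.57 for HLA-B, HLA-C and HLA-E, where PSMB8, PSMB9, TAP1 and TAP2 were lower. IRF1, a transcription factor of the interferon response, rose by 0.39 at 1 ug/ml. Of the 6 ubiquitin and E1 genes, UBA6, UBA1 and UBB rose at 10 ug/ml, by 1.16, 0.40 and 0.26, while RPS27A, which encodes ubiquitin fused to a ribosomal protein, fell by 0.20. In THP1, 0 genes of these 5 lists were called at either dose.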

How the data were processed

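Messenger RNA of 18 plates was measured by RNA-seq, 3 plates for each of THP1 and B11 at 0, 1 and 10 ug/ml doxycycline. The authors deposited 1 table of FPKM values per gene, made per the submitters' processing notes with HISAT2, Cuffnorm and GRCh38. The header names no unit, and FPKM was taken from the tool. Versions, annotation release, strand setting and library scaling were not given in the sources used here.

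Ensembl IDs were named with the GENCODE annotation of GRCh38 for 57047 of 60658 IDs. All 38 proteasome genes were found. Promoter sequences came from RefSeq (GRCh38.p14). Each library's depth was estimated from the step that 1 fragment makes in low values of 453 genes with 1 transcript.

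Differences were fitted on log2(FPKM + 1) with limma 3.58.1 (R 4.3.3), with 6 group means in 1 fit, an intensity trend and 12 residual degrees of freedom, over the 17555 genes that reached 1 FPKM in 3 or more libraries. Fold changes are on the log2(FPKM + 1) scale, which understates changes of low genes. Within each of 12 comparisons p-values were adjusted over all genes (Benjamini-Hochberg) and called under 0.05, and intervals are 95% and unadjusted. The fit was tested on simulated data. The alternatives were another pseudocount, filters, scalings, no trend, a replicate block, only the groups compared and each library left out, and 2 chosen after seeing the data. Every member is reported, with values per library for the paired subunits, PSME1, PSME2, PSME3, POMP and the 2 genes per role with the smallest p in either B11 dose comparison. Other pathway genes were to be named by smallest p, up to 3 a list in a comparison. Some genes of these lists are counted but not reported here by name. The members and lists were chosen with earlier results of these data known.

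The library letters A, B and C do not pair the samples: same-letter libraries of different groups had correlations of their deviations between -0.0705 and 0.0923. Figures were drawn with matplotlib 3.10.9.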

Additional observations from a re-analysis of the deposited data

Results flagged for a closer look

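The dose response of B11 differed from that of THP1 by the test of the difference itself, for 24 of 38 proteasome genes at 10 against 0 ug/ml, for 24 at 1 against 0 ug/ml and for 1 at 10 against 1 ug/ml. The values below are the log2 response of B11 minus that of THP1 for genes shown per library. Differences that were not called are left out unless stated.

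In the core at 10 against 0 ug/ml the difference was 0.47 for PSMA4, 1.02 for PSMA5 and 0.39 for PSMA7 of the alpha ring, and 1.05 for PSMB2, 0.78 for PSMB6 and 0.40 for PSMB7 of the beta ring. At 1 against 0 ug/ml these genes differed by 0.66, 0.68, 0.42, 0.77, 0.85 and 0.43 in the same order. Of the immunoproteasome genes, PSMB8 differed by 0.78 and 0.45 at 10 and 1 ug/ml, PSME2 by 0.96 and 0.71, and PSMB9 by 1.43 at 10 ug/ml. At 1 ug/ml the difference of PSMB9 was also 0.71, but it was not called.

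In the regulatory particle at 10 against 0 ug/ml the difference was 1.05 for PSMC3 and 1.02 for PSMC4 in the base, and 0.54 for PSMD7, 0.70 for PSMD8 and 0.97 for PSMD12 in the lid. At 1 against 0 ug/ml it was 1.29, 0.88, 0.61, 0.76 and 0.81 in the same order. For the chaperone POMP it was 0.80 at 10 ug/ml and 0.63 at 1 ug/ml. At 10 against 1 ug/ml only PSME2 was called, with a difference of 0.25. PSMB10 and PSME1 were not called in any of the 3.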

How the results depend on the processing

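No value of the 38 genes that was called changed its sign in any of the 28 alternatives, and 26 of 29 genes called in B11 at 10 against 0 ug/ml and 24 of 31 at 1 against 0 ug/ml were called in every one. The count at 10 against 1 ug/ml in B11, 3, was 5 under TPM scaling, 5 with only the groups compared, 5 with a replicate block, and 7 under TPM scaling without the unnamed ID. Of the 3, 2 were higher and 1 lower, and of the 7, 2 were higher and 5 lower. The difference between lines at 1 ug/ml, 16, was 6 without the B and C libraries of the 1 ug/ml B11 group. The difference of dose response at 10 against 1 ug/ml, 1, was 0 with a pseudocount of 0.1, under TPM scaling, without the trend, with the block, with only the groups compared and without those 2 libraries. The count was 2 with genes of a mean of at least 5 FPKM. Under TPM scaling without the unnamed ID it was also 2, but both were lower. Under median of ratios scaling it was 1, also lower. The main call, PSME2, was higher, so it is not among the calls under these 2 scalings. The cause was not tested.

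With each library left out, the counts of called genes ran from 27 to 30 for B11 at 10 against 0 ug/ml, 29 to 31 at 1 against 0, 2 to 4 at 10 against 1, 20 to 23 for B11 against THP1 at 0, 10 to 17 at 1 and 10 to 16 at 10 ug/ml. For the difference of dose response they ran from 21 to 26 at 10 against 0, 21 to 26 at 1 against 0 and 0 to 1 at 10 against 1 ug/ml, and for THP1 they were 0. The replicate block, which treats libraries of 1 letter as a set, gave 29 for B11 at 10 against 0 ug/ml and 30 at 1 against 0. The letters did not pair the samples, and 7 of 18 libraries correlated best with their own letter. TPM scaling moved the median of all genes by -0.10 for untreated B11 against THP1, and TPM scaling without the unnamed ID moved it by 0.11 for the difference of dose response at 1 against 0 ug/ml. With an estimated 11.6M to 16.7M fragments, each of the 38 genes rested on an estimated 570 fragments or more. That estimate uses the merged length of all annotated exons, so the true floor may be lower.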
